A study of Bos taurus with 14 samples.

Results

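The 8 genes described here came next in rank after those passing the significance threshold when bovine endometrium of high and low fertility was compared. Of the 8, only ENSBTAG00000038619 came close to the threshold, with a Benjamini-Hochberg adjusted p of 0.0634 in the quasi-likelihood fit of edgeR. The others had an adjusted p of 0.213 to 0.694 in that edgeR fit. The 8 genes were chosen by their p-values in that comparison, as the genes ranked 6 to 13 directly after the 5 that passed. They are thus 8 of 14929 genes tested and of 15524 listed. Because the difference between the fertility groups chose them, their levels in the groups are given as a description, and no test of fertility is drawn from them. All 8 passed the low-count filter.

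The study measured polyadenylated RNA by sequencing in the lining of the uterus. High fertility (labelled Fert+) and low fertility (labelled Fert-) were each represented by 7 samples, all from the ipsilateral uterine horn at a time labelled day 7 oestrus. The labels name no treatment for either group and no further control, and the sources used here do not give the breed, age or parity of the cows. The labels number the samples but do not say that each came from a different cow, so the spread given below is that between samples. Replicates 1 to 7 of each group only name the libraries and pair nothing.

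The endometrium consists of luminal and glandular epithelium over a stroma with vessels and immune cells. In the week after ovulation the corpus luteum raises progesterone, which changes the expression and secretion of these cells and prepares the uterus to support an early embryo that is not yet attached. In such bulk tissue, fewer cells of a type and less RNA per cell cannot be told apart. The deposited tables give genes by Ensembl identifier alone, and 0 of these identifiers could be matched to a symbol, so the 8 genes are described by identifier, without function or position. For the same reason marker genes of the tissue's cell types could not be looked up, and their part in the differences was not tested.

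The libraries were of like depth, with 20641141 to 23641397 counts each, and scaling factors for composition between 0.963 and 1.07. Levels are given as CPM, the count of a gene relative to the total of its library after that scaling. Low fertility replicate 6 had the fewest counts.

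Of the 8 genes, 7 had a higher mean in high fertility and 1, ENSBTAG00000013343, a lower one. Over all genes tested 49.7% were fitted higher in high fertility. The median log2 difference of the 8 (high minus low) was 0.68, against -0.0017 over all genes tested. Without regard to sign the medians were 0.68 and 0.149. The comparison that chose the 8 favours larger differences. Differences of 2-fold or more were fitted for 3 of the 8, and for 162 genes in all. Mean levels ran from 5.87 to 138 CPM, and 6 of the 8 lay above the median gene at 23.6 CPM. They are therefore mostly well expressed genes, and the counting error of a single library was at most 5.46% for these 6, where every library held at least 336 counts. The 2 scarcer genes reached down to 85 and 26 counts, with counting errors of 10.8% and 19.6%.

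**Figure D1:**
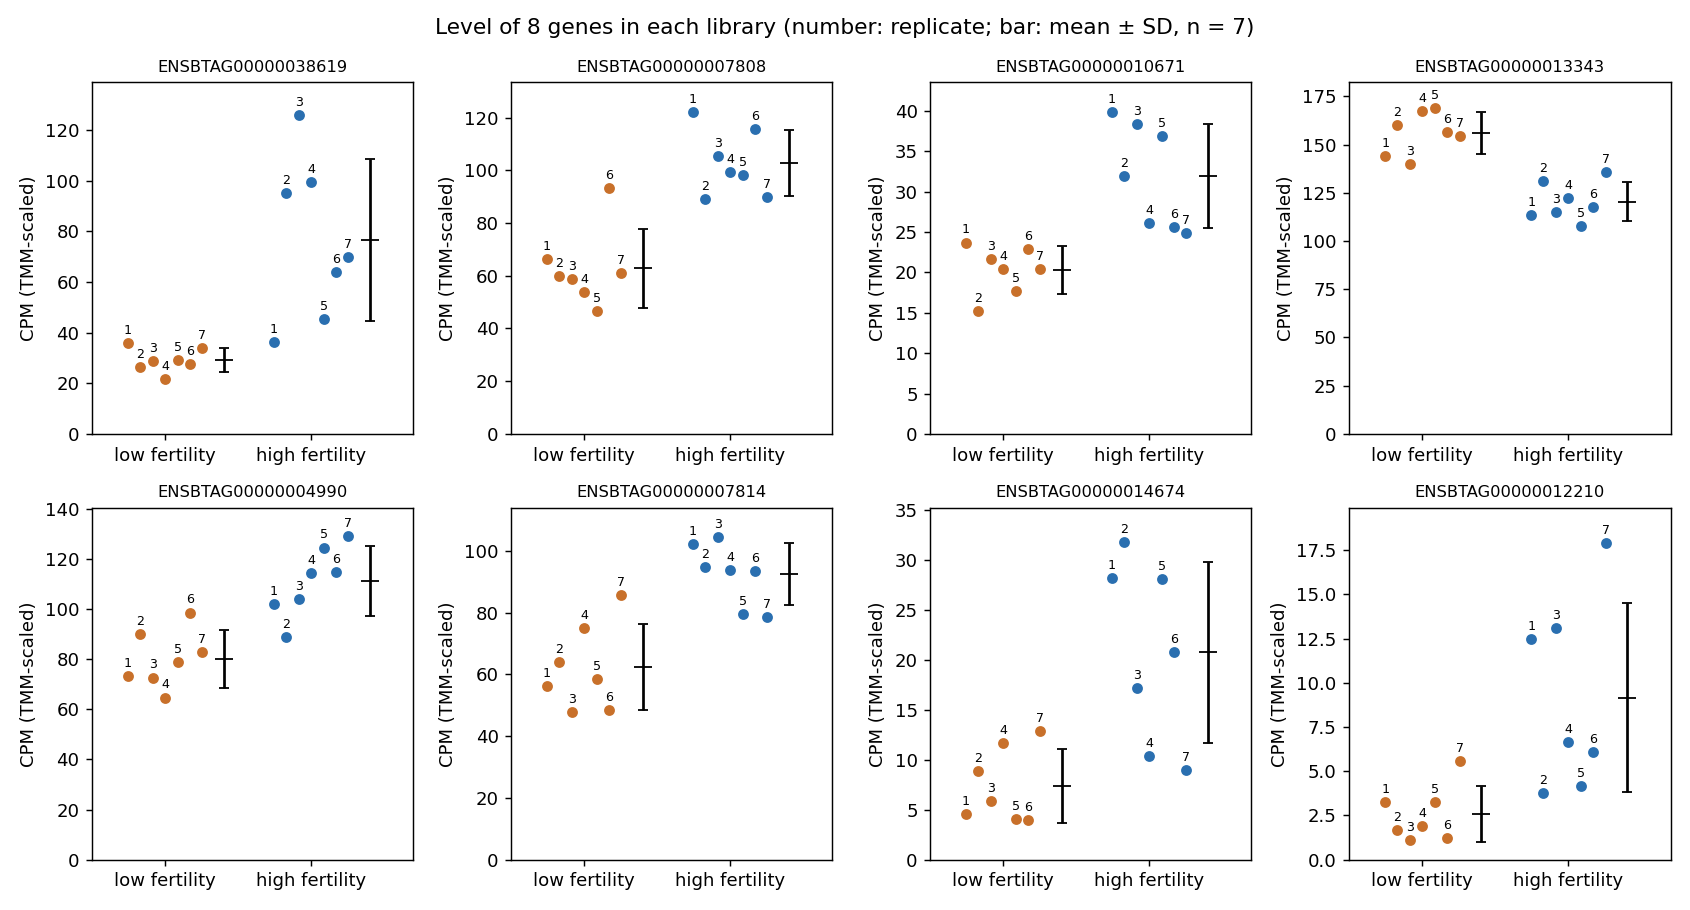
CPM (y axis, from 0) of the 8 genes in each library, low fertility in orange and high fertility in blue, with the replicate number above each point and the mean ± SD (n = 7) as a bar. The groups stand apart without overlap in ENSBTAG00000038619, ENSBTAG00000010671 and ENSBTAG00000013343, and 1 or 2 libraries of each group cross over in the other 5.

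The genes that ranked on either side of the threshold had the following values. The last gene that passed, ENSBTAG00000015307, had a Benjamini-Hochberg adjusted p of 0.0400 in the quasi-likelihood fit of edgeR, and 39.9 ± 5.66 CPM in low and 65.7 ± 8.52 CPM in high fertility (SD, n = 7). The first of the 8, ENSBTAG00000038619, followed with an adjusted p of 0.0634 in the same edgeR fit. ENSBTAG00000007808 came next at 0.213, then ENSBTAG00000010671 and ENSBTAG00000013343 at 0.564, and the other 4 at 0.694. The first gene left out, ENSBTAG00000026966, shared the adjusted p of 0.694, with an unadjusted p of 0.000679 against 0.000659 for ENSBTAG00000012210, the last one included. The lower edge of the set is thus a cut through nearly equal values. In this fit 5 genes passed an adjusted p of 0.05, 0.0335% of those tested, and 0 of the 8 by construction. At 0.10 there were 6 genes, 0.0402%, of which 1 was among the 8.

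ENSBTAG00000038619 had the most uneven levels within high fertility among the well expressed genes. Low fertility libraries held 21.7, 28.7 and 36.1 CPM (lowest, median and highest), and high fertility libraries 36.4, 69.7 and 126 CPM. The low fertility libraries were close together, while the high fertility libraries spread over a 3.46-fold range, with replicates 1 and 5 at the bottom and replicate 3 at the top. The means were 29.1 ± 4.79 CPM in low and 76.6 ± 31.9 CPM in high fertility (SD, n = 7), a fitted 2.63-fold higher level in high fertility (log2 difference 1.40, SE 0.237, 95% interval 0.89 to 1.90). The groups did not overlap, but only by 0.291 CPM. High fertility replicate 1 (807 counts, 36.4 CPM) and low fertility replicate 1 (889 counts, 36.1 CPM) differed by less than the counting error of that difference, 1.76 CPM. Relative to library totals alone the order of these libraries was the opposite, at 35.2 and 38.4 CPM.

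ENSBTAG00000010671 was the least expressed of the genes without overlap. Its low fertility libraries held 15.2, 20.4 and 23.7 CPM and its high fertility libraries 24.9, 31.9 and 39.8 CPM (lowest, median and highest). High fertility replicates 4, 6 and 7 lay close above the low fertility range, and replicates 1, 3 and 5 well above it. The fitted level was 1.58-fold higher in high fertility (20.3 ± 2.97 against 32.0 ± 6.46 CPM, SD, n = 7, log2 difference 0.66, SE 0.143). The gap between the groups, 1.23 CPM, was smaller than its counting error of 1.42 CPM.

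ENSBTAG00000013343 was the most abundant of the 8 and the only one lower in high fertility. Low fertility libraries held 140, 156 and 169 CPM and high fertility libraries 108, 118 and 136 CPM (lowest, median and highest). It was also the steadiest, with a coefficient of variation of 7.02% in low and 8.36% in high fertility. The fitted level was 1.29-fold lower in high fertility (156 ± 10.9 against 120 ± 10.1 CPM, SD, n = 7, log2 difference -0.37, SE 0.0815), the smallest difference of the set. The groups were separated by 3.82 CPM, against a counting error of 3.41 CPM for that gap.

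Together these are 3 of 8 genes whose groups did not overlap, 2 with high fertility above and 1 below. Over all genes tested this held for 0.121%, 0.0737% with high fertility above and 0.0469% below. The comparison that chose the 8 favours such genes, so the share is not read further. Without a factor for composition only ENSBTAG00000013343 kept its groups apart. With median-of-ratios or upper quartile factors ENSBTAG00000010671 did so as well, which leaves ENSBTAG00000038619 as the gene whose separation was seen with TMM factors alone.

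The other 3 well expressed genes had high fertility means 1.39 to 1.64 times the low fertility ones, with 1 or 2 libraries of each group inside the range of the other group. In ENSBTAG00000007808 low fertility libraries held 46.5, 59.7 and 93.4 CPM and high fertility libraries 89.0, 99.3 and 122 CPM (lowest, median and highest). A single low fertility library, replicate 6, stood inside the high fertility range. The next highest low fertility library held 66.4 CPM. The means were 62.8 ± 14.9 and 103 ± 12.5 CPM (SD, n = 7), and the fitted difference 1.64-fold (log2 difference 0.71, SE 0.137).

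ENSBTAG00000004990 differed 1.39-fold (80.1 ± 11.4 CPM in low and 111 ± 13.8 CPM in high fertility, SD, n = 7, log2 difference 0.47, SE 0.111). Low fertility libraries held 64.7, 78.9 and 98.6 CPM and high fertility libraries 88.9, 114 and 129 CPM (lowest, median and highest). Low fertility replicates 2 and 6 reached above the lowest high fertility library, replicate 2, and the other 6 high fertility libraries were above all of low fertility.

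ENSBTAG00000007814 differed 1.48-fold (62.3 ± 13.9 CPM in low and 92.4 ± 10.1 CPM in high fertility, SD, n = 7, log2 difference 0.57, SE 0.134). Low fertility libraries held 47.9, 58.4 and 85.8 CPM and high fertility libraries 78.6, 93.8 and 105 CPM (lowest, median and highest). Low fertility replicate 7 was the one library of its group inside the high fertility range, above high fertility replicates 5 and 7.

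The 2 scarcer genes had the largest fitted differences and the widest spread. ENSBTAG00000014674 held 3.94, 5.82 and 12.8 CPM in low and 8.98, 20.8 and 31.8 CPM in high fertility libraries (lowest, median and highest). Low fertility replicates 4 and 7 overlapped high fertility replicates 4 and 7. The means were 7.40 ± 3.73 and 20.8 ± 9.04 CPM (SD, n = 7), a fitted 2.81-fold difference (log2 difference 1.49, SE 0.350).

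ENSBTAG00000012210 held 1.12, 1.92 and 5.60 CPM in low and 3.77, 6.65 and 17.9 CPM in high fertility libraries (lowest, median and highest). High fertility replicates 1, 3 and 7 lay between 12.5 and 17.9 CPM and the other 4 at 6.65 CPM or less, and low fertility replicate 7 stood above high fertility replicates 2 and 5. The means were 2.58 ± 1.60 and 9.17 ± 5.36 CPM (SD, n = 7), a fitted 3.55-fold difference with a wide 95% interval of 1.88 to 6.68 (log2 difference 1.83, SE 0.430). The biological coefficient of variation fitted for this gene was 53.9%, and that of ENSBTAG00000014674 44.8%. The median of all genes tested was 25.9%, and 5 of the 8 genes lay below it, at 13.9% to 20.8%. The set thus joins steady genes with small differences and variable genes with large ones. A choice by similar p-values brings this about, since p weighs the difference against the spread.

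**Figure D2:**
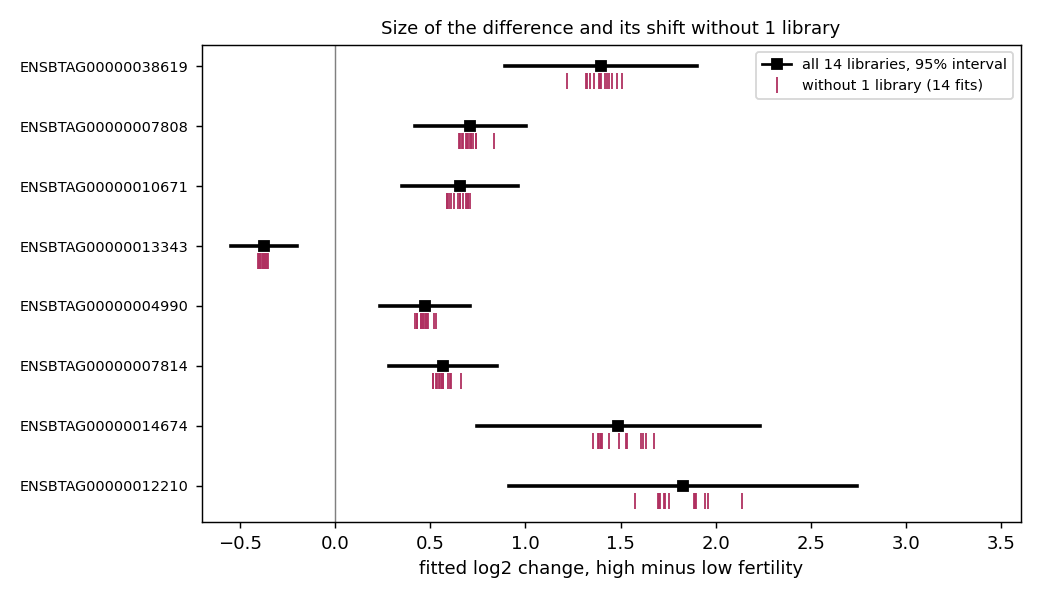
Fitted log2 difference, high minus low fertility (x axis), of each gene with its 95% interval (black), and below it the values of the 14 fits that each leave out 1 library (red ticks). The intervals are narrowest for ENSBTAG00000013343 and widest for ENSBTAG00000012210, and no tick crosses 0. The genes were chosen by p-value in this comparison, so the distance of intervals and ticks from 0 is no support for a difference.

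The libraries that crossed over differed from gene to gene. Low fertility replicate 7 lay inside the high fertility range in 3 genes (ENSBTAG00000007814, ENSBTAG00000014674 and ENSBTAG00000012210) and was the highest of its group in each. Low fertility replicate 6 did so in ENSBTAG00000007808 and ENSBTAG00000004990. High fertility replicates 2 and 7 each lay inside the low fertility range in 3 genes. High fertility replicate 7 was the lowest of its group in 3 genes and the highest in 3 others. These others include ENSBTAG00000013343, where the highest library is the one nearest low fertility. This replicate was thus the nearest of its group to low fertility in 4 genes, the most for any library. It was the farthest from low fertility in ENSBTAG00000004990 and ENSBTAG00000012210. No library stood at the level of the other group throughout.

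Correlations between the 8 genes were taken within each fertility group, since the choice of genes used the difference between the groups and not the order of libraries inside them. With 7 libraries and 28 pairs of genes in each of 2 groups, 56 correlations of log2 CPM were computed, each with an exact two-sided permutation test over 5040 orders (smallest possible p 0.000198). After Benjamini-Hochberg adjustment 0 of 56 passed an adjusted p of 0.05, by Pearson's r (smallest adjusted exact permutation p 0.823) or by Spearman's rho (0.681). At an unadjusted p under 0.05 there was 1 by each. In low fertility 13 coefficients were above 0 and 15 below, with a median of -0.0578, and in high fertility the numbers were the same, with a median of -0.0429. The sign was alike in both groups for 12 of the 28 pairs. No common order of libraries among the 8 genes was detectable, though with 7 libraries even strong correlations can go undetected after the adjustment. The highest r of the 56, 0.859, had an adjusted exact permutation p of 0.823.

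The highest coefficient was between ENSBTAG00000007814 and ENSBTAG00000014674 in low fertility, where replicates 7 and 4 were the 2 highest for both genes. Pearson's r was 0.859 (exact permutation p = 0.0157, adjusted 0.823) and Spearman's rho 0.750 (exact permutation p = 0.0663, adjusted 0.681). Without the 2 libraries farthest from the median, which were these same extremes, r over the other 5 was 0.495. Without low fertility replicate 7 alone it was 0.777 and without replicate 4 alone 0.825. In high fertility r for this pair was 0.280 (exact permutation p = 0.541, adjusted 0.827). The most negative coefficient was between ENSBTAG00000004990 and ENSBTAG00000007814 in high fertility, with r of -0.733 (exact permutation p = 0.0623, adjusted 0.823) and rho of -0.857 (exact permutation p = 0.0238, adjusted 0.681). Without the 2 libraries farthest from the median of ENSBTAG00000004990 r was -0.959, and without the 2 farthest from that of ENSBTAG00000007814 it was -0.185. In low fertility r was -0.236 (exact permutation p = 0.606, adjusted 0.832).

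**Figure D3:**
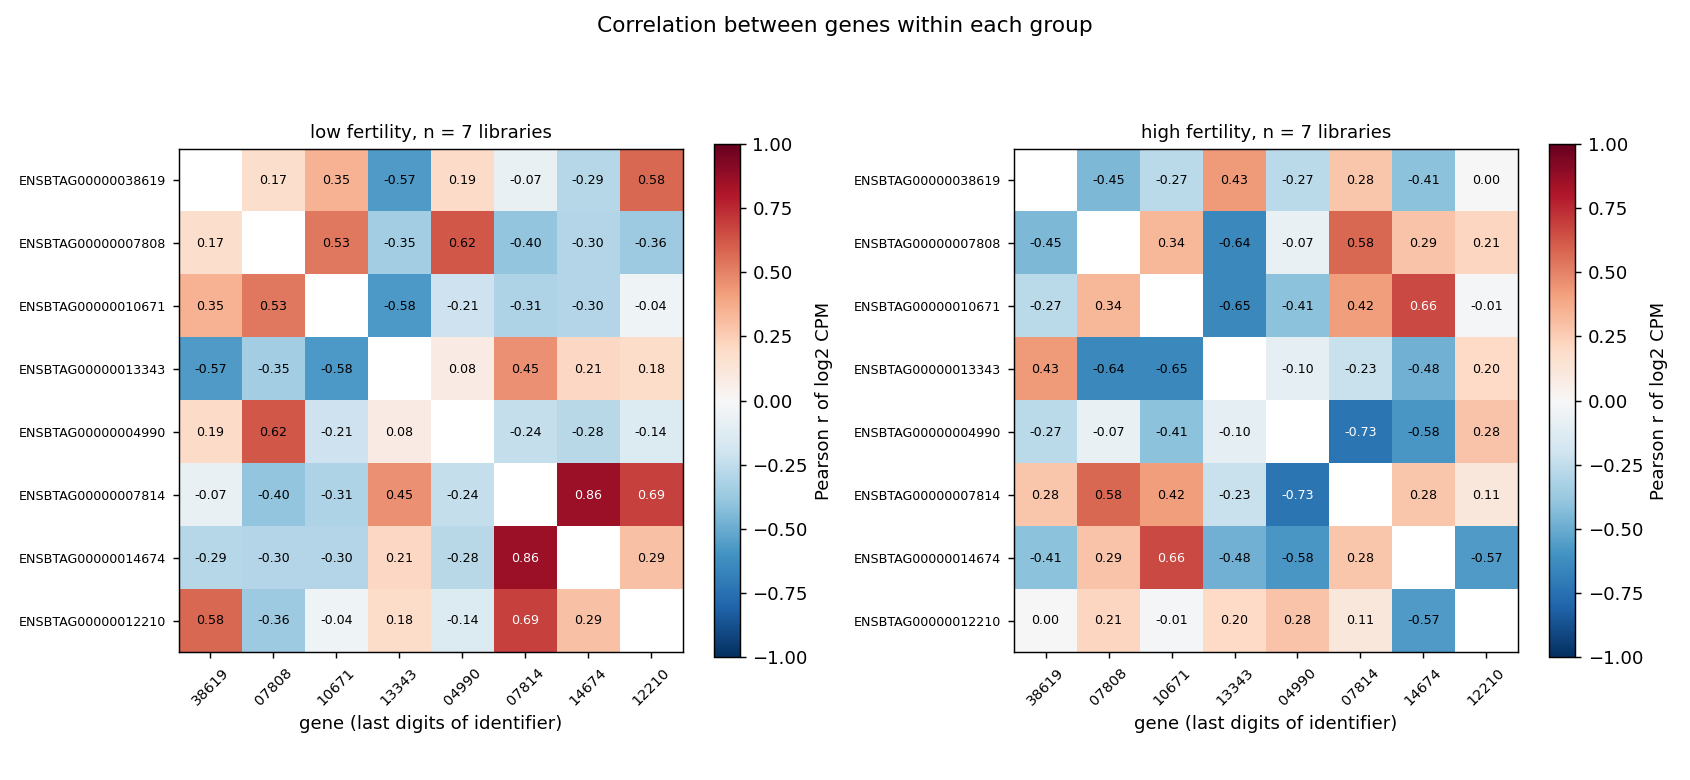
Pearson's r of log2 CPM for each pair of the 8 genes over the 7 low fertility libraries (left) and the 7 high fertility libraries (right), with genes on both axes, red above 0 and blue below. The highest values in low fertility are 0.86 and 0.69 between ENSBTAG00000007814 and 2 other genes, then 0.62 between ENSBTAG00000007808 and ENSBTAG00000004990. In high fertility the highest is 0.66 between ENSBTAG00000010671 and ENSBTAG00000014674. Beyond these pairs no block of genes has high values in either group.

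The gene most like each of the 8 was sought among all genes tested, by the Pearson correlation of deviations from the group means over 14 libraries, given as a description. The closest partner lay outside the set in all 8 cases, which was likely in any case because nearly all candidates lie outside it. ENSBTAG00000010671 had the closest one, ENSBTAG00000010457 (r = 0.927), and ENSBTAG00000038619 the least close, ENSBTAG00000006615 (r = 0.789). These partners, over 14929 candidates, are the extremes of many values. ENSBTAG00000010457 held 8.38 ± 2.03 CPM in high and 6.73 ± 1.16 CPM in low fertility (SD, n = 7), with an unadjusted p of 0.0936 and an adjusted p of 0.741 for fertility in the edgeR fit. ENSBTAG00000006615 held 18.2 ± 3.30 and 18.0 ± 1.18 CPM (SD, n = 7), with an adjusted p of 0.982 in that edgeR fit. These correlations are taken after the group means are removed and so say nothing of the difference between the groups.

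The partners of the other 6 genes were ENSBTAG00000021024 for ENSBTAG00000007808 (r = 0.886), ENSBTAG00000012350 for ENSBTAG00000013343 (0.868), ENSBTAG00000032686 for ENSBTAG00000004990 (0.878), ENSBTAG00000017788 for ENSBTAG00000007814 (0.909), ENSBTAG00000044056 for ENSBTAG00000014674 (0.832) and ENSBTAG00000044067 for ENSBTAG00000012210 (0.816). The partners of ENSBTAG00000014674 and ENSBTAG00000012210 differed the other way from these genes (log2 differences -0.011 and -0.24). All other partners differed the same way as their gene. The edgeR fit gave log2 differences of 0.32 (unadjusted p 0.0119) and 0.46 (unadjusted p 0.0427) to the partners of ENSBTAG00000007808 and ENSBTAG00000007814, with an adjusted p of 0.728 for both. The 8 genes were chosen on this contrast, so the directions of their partners are not read further. The partners of the 2 scarcer genes were themselves below 1 CPM in both groups, so their values carry much counting error. Within the set the closest pair was ENSBTAG00000007814 and ENSBTAG00000014674 (r = 0.627), and the closest member to ENSBTAG00000038619 was ENSBTAG00000013343 at r = 0.171. For ENSBTAG00000038619, 3853 of the 14929 genes tested were nearer than any member. Over the 8 genes this number ran from 104 for ENSBTAG00000014674 to 4524 for ENSBTAG00000013343.

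How far the standing of the 8 genes depended on single libraries was seen by leaving out each of the 14 in turn. The direction was kept for every gene in all 14 fits, which share most libraries. ENSBTAG00000038619 was the most stable by rank, within the first 13 in all 14 fits, and passed the threshold in 1 of them. That was without high fertility replicate 1, its lowest high fertility library, where it ranked 1 with an edgeR adjusted p of 0.0416 and a log2 difference of 1.51. ENSBTAG00000007808 stayed within the first 13 in 12 fits and passed in 1, without low fertility replicate 6, with an adjusted p of 0.0147 in that edgeR fit and a log2 difference of 0.83. Both are fits that remove the library nearest the other group, so a smaller p was likely in advance and is no support for a difference.

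The other 6 genes passed in 0 of 14 fits, where their unadjusted p stayed at or below 0.00193 by the same edgeR test. They were chosen for small p-values and the fits share most libraries, so this bound is no support for a difference. Their ranks moved more. ENSBTAG00000013343 was among the first 13 in 11 fits, ENSBTAG00000010671 in 8, ENSBTAG00000012210 in 6, ENSBTAG00000004990 in 4, ENSBTAG00000014674 in 3 and ENSBTAG00000007814 in 2. Without low fertility replicate 7 or replicate 4 only 1 of the 8 remained among the first 13. Without low fertility replicate 7 the adjusted p of all 8 was 0.0671 to 0.180 by edgeR, and 1825 genes had an unadjusted p under 0.05, against 1011 with all libraries. Without low fertility replicate 5 the adjusted p was 0.179 to 0.930 and that number was 732. The Benjamini-Hochberg adjustment depends on all genes tested. All 8 adjusted values rose when low fertility replicate 5 was left out. When replicate 7 was left out, that of ENSBTAG00000038619 went from 0.0634 to 0.0671 by edgeR, and those of the other genes fell.

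**Figure D4:**
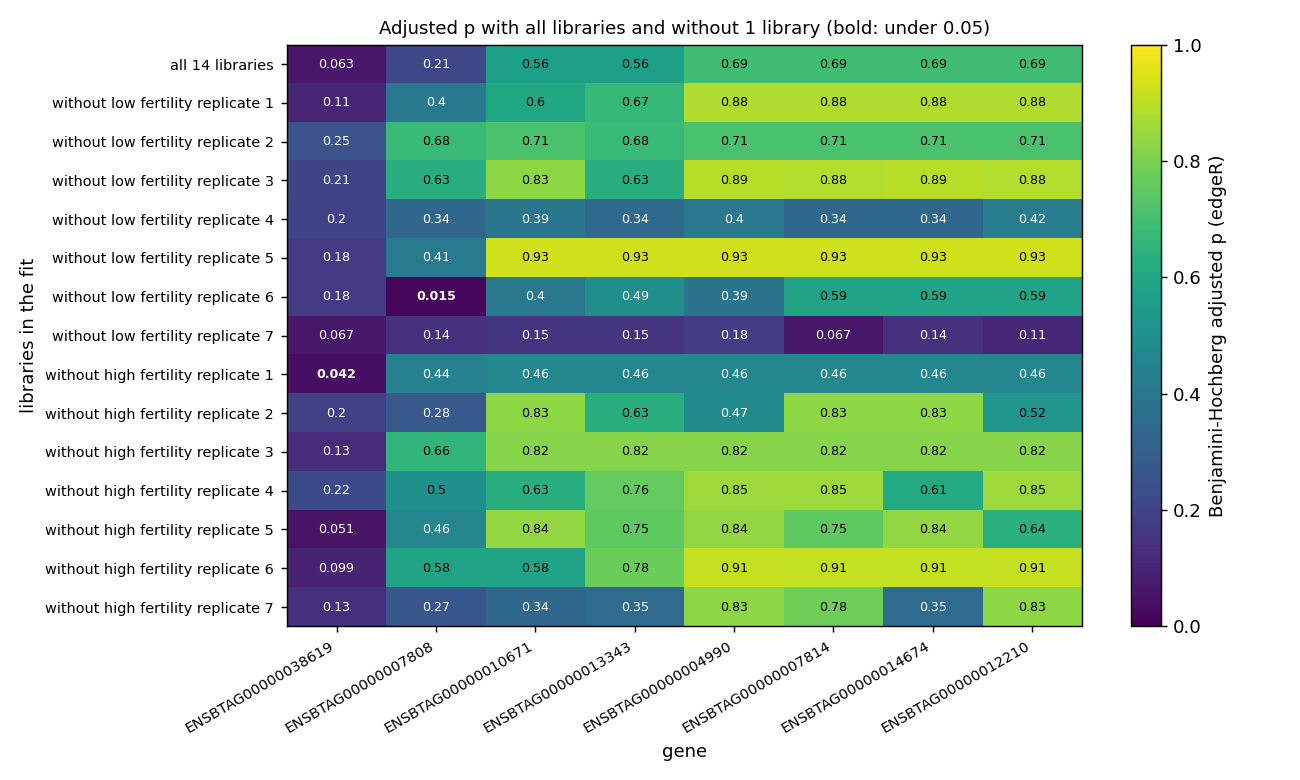
EdgeR adjusted p of each gene (columns) with all 14 libraries (first line) and without each library in turn (other lines), coloured from 0 to 1. Values under 0.05, in bold, are 0.042 for ENSBTAG00000038619 without high fertility replicate 1 and 0.015 for ENSBTAG00000007808 without low fertility replicate 6.

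The standing also depended on the test. DESeq2 gave an adjusted p under 0.05 to 7 of the 8, all but ENSBTAG00000007814 (0.0607), among 19 genes in all. EdgeR's exact test did so for 4 of 9, namely ENSBTAG00000038619, ENSBTAG00000007808, ENSBTAG00000014674 and ENSBTAG00000012210. Limma-voom gave 0 of 1 called gene, with adjusted p of 0.166 to 0.511 for the 8, and with a quality weight per library it gave 2 of 8 called genes, ENSBTAG00000038619 (0.0325) and ENSBTAG00000007814 (0.0496). No gene of the 8 passed with all 4 of these tests. Their log2 differences ran from 1.30 to 1.40 for ENSBTAG00000038619 and from 0.56 to 0.67 for ENSBTAG00000007814. With quality weights those of ENSBTAG00000010671 and ENSBTAG00000013343 shrank to 0.52 and -0.29, from 0.66 and -0.37 in the fit described. These 2 genes then ranked 224 and 221, ENSBTAG00000014674 180, ENSBTAG00000012210 147 and ENSBTAG00000004990 68, and the others 4 to 12.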

How the data were processed

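Read counts per gene, whole numbers that were not normalised, were deposited by the authors for 14 libraries. Per the submitters' processing notes, the tools were CASAVA 1.4, STAR, HTSeq 0.3p7 and edgeR, on build UMD3.1. The sources used here give no settings, annotation release or use of strand, so reads of overlapping genes or near-identical copies may be split. The series table and the sample files differed in 0 of 217336 cells.

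The fit used edgeR 4.0.16 under R 4.3.3: filterByExpr, TMM scaling, then robust glmQLFit and glmQLFTest with fertility as the only term, and Benjamini-Hochberg adjustment over 14929 genes (threshold 0.05). Standard errors were worked back from the log2 change and its F statistic. The script was tested on simulated counts. Log2 CPM had a prior count of 2. Counting errors are Poisson and cover counting only. Alternatives used DESeq2 1.42.0, limma 3.58.1, sva 3.50.0, other scalings and filters, and libraries left out. Permutations and figures used scipy 1.17.1 and matplotlib 3.10.9.

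The 8 genes and the tests were chosen with earlier results of these data known. The naming rule took the 8 genes, the genes next to them in rank, and each one's closest partner within and outside the set. No identifier matched the 37063 genes of the RefSeq table (ARS-UCD2.0), so cell type marker lists were not run and no sequence is shown.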

Additional observations from a re-analysis of the deposited data

Results flagged for a closer look

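Among 16 groups of 7 values (8 genes in 2 fertility groups), 1 held a library far from the rest, where chance gives about 1 in 20. ENSBTAG00000007808 stood at 93.4 CPM in low fertility replicate 6, and the next low fertility library at 66.4 CPM. The gap took 0.576 of the range of the group, just past the critical value of 0.568. This library also had the fewest counts of all, 20641141, but its raw count for the gene, 2013, was the highest of the low fertility group. Whether depth played a part was not tested. Without this library the 6 other low fertility libraries all lay below high fertility for the gene. The fitted log2 difference was then 0.83 (edgeR adjusted p 0.0147), against 0.71 (0.213) with all libraries. With all libraries and log2 library size as a covariate it was 0.79 (edgeR adjusted p 0.0547). The gene was chosen on this contrast, and the library left out was the one nearest high fertility. A smaller p and separate groups were therefore likely in advance and are no support for a difference. How many of all genes separate without this library was not counted.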

How the results depend on the processing

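The sign of the fitted difference was kept for all 8 genes in 27 alternative fits, which share most libraries. The 5 genes that passed became 3 with upper quartile factors or no composition factor, 19 with DESeq2, 1 with limma-voom, 8 with limma-voom and quality weights, 9 with edgeR's exact test, 1 with log2 library size as a covariate, 2 without low fertility replicates 4 and 5 together, and 0 to 5 without 1 library. Among the 8 genes, 0 passed in the fit described and 7 by DESeq2, 2 by limma-voom with quality weights, 4 by edgeR's exact test, 1 at a threshold of 0.10, and 0 to 1 without 1 library. The 3 genes without overlap became 1 without a composition factor, and 3 to 5 without 1 library, the 5 without low fertility replicate 7. The share over all genes tested was not counted in these settings. Groups with fewer libraries also separate more easily, so these numbers are not read further. Within-group correlations that passed numbered 0 in every setting run. Where libraries were left out, the group that lost them had too few orders for a single pair to pass by itself. For ENSBTAG00000004990 and ENSBTAG00000007814 in high fertility without replicate 2, r was -0.974 and the adjusted exact permutation p 0.293. The 0 in those groups was thus largely fixed in advance, and no conclusion is drawn from it. Between deviations of ENSBTAG00000013343 and ENSBTAG00000038619 r was 0.171 with all libraries and -0.0109 (without high fertility replicate 5) to 0.318 without 1 library, and between ENSBTAG00000012210 and ENSBTAG00000013343 0.191 and -0.0350 (without high fertility replicate 7) to 0.386. The widest range of the 6 closest pairs was that of ENSBTAG00000004990 and ENSBTAG00000007808, 0.378 with all libraries and 0.00910 (without low fertility replicate 6) to 0.508. The other 3 pairs lay at 0.235 or above without any 1 library. The cause of these shifts was not tested. Depth limits the 2 scarcer genes most. No paired analysis was possible because the labels give no replicate numbers shared by the groups.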
